A study of Arabidopsis thaliana with 6 samples.

Results

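Aquaporins are channel proteins of the major intrinsic protein family that let water, and in some members small uncharged solutes, cross a membrane. Plants carry several subfamilies: plasma membrane intrinsic proteins (PIP1 and PIP2), tonoplast intrinsic proteins of the vacuole (TIP), nodulin 26-like intrinsic proteins (NIP) and small basic intrinsic proteins of the endoplasmic reticulum (SIP). PIP2 proteins are the strong water channels when expressed in Xenopus oocytes, PIP1 proteins often need a PIP2 partner to reach the plasma membrane, TIPs also pass ammonia or urea, and several NIPs carry boric acid. In a flower, the anther wall loses water before the anther opens and the pollen grain dries and later takes water up again, and both steps need water to cross membranes.

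The 35 aquaporin genes of Arabidopsis thaliana were taken by gene identifier, 5 PIP1, 8 PIP2, 10 TIP, 9 NIP and 3 SIP genes out of 32833 genes listed for each library. All 35 were above 0 in at least 1 library. Levels are FPKM, fragment numbers divided by transcript length and library size, and 26 of the 35 passed the filter for testing, which asked for an FPKM of 1 or more in 3 or more libraries. The filter kept 18858 genes in all, among them every PIP and SIP gene, 5 of the 10 TIP genes and 5 of the 9 NIP genes.

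The libraries came from anthers at flower stages 9 to 13 of ice1-2 -/- plants and of wild-type Col-0 plants. The mutant is a SALK T-DNA line of the Col-0 ecotype that is disrupted in the third exon of ICE1. Both genotypes grew in a greenhouse with 16 h of light and 8 h of dark at 22 °C. Each genotype gave 3 libraries, labelled A, B and C, and values of a genotype follow that order. ICE1 is a DNA-binding regulator of the basic helix-loop-helix class, named for inducing the CBF genes, and the study compared the genotypes in a search for its role in male fertility. Whether the 3 libraries stem from different plants is not stated in the sources used here, so the p values describe the scatter among libraries alone.

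Facts that hold for whole libraries set the precision. Depth, estimated roughly from the steps between low FPKM values, was 5.88 to 19.6 M fragments (M for mega) in the ice1-2 libraries, with ice1-2 A the shallowest, and 22.1 to 27.0 M in the Col-0 libraries. In ice1-2 A, ribosomal RNA genes held 7.10% of the FPKM sum and the top 10 genes 16.9%, against 0.461% to 2.22% and 6.16% to 11.2% in the other 5 libraries. ICE1 itself had an FPKM of 12.9, 15.4 and 21.5 in the libraries labelled ice1-2, against 12.7, 9.25 and 14.0 in Col-0 (log2 fold change 0.44, standard error 0.24, limma adjusted p = 0.323). With 1 value per gene and the insertion inside the gene, this level does not check the labels. Of the stomatal lineage genes, in which ICE1 is known to act, FMA had an FPKM of 0, 0.265 and 0.114 in ice1-2, against 0.907, 0.909 and 1.30 in Col-0, and EPF1 had 0, 0.059 and 0 in ice1-2, against 0.318, 0.457 and 0.664 in Col-0. Both were under the filter and lower in every ice1-2 library. Among all genes tested, which those 2 were not, 7.39% were lower in every ice1-2 library. The study reported other stomatal lineage genes, among them TMM, SPCH and MUTE, as higher in the mutant. Their levels were not examined here, so FMA and EPF1 do not stand for the lineage. Of the other guard cell markers, TGG1, OZS1 and HT1 were also lower in every ice1-2 library, while MYB60, GORK and KAT1 overlapped. OZS1 and HT1 had an FPKM of at most 0.213 and 0.252 in Col-0, levels of few fragments. Like FMA and EPF1, they were at 0 in ice1-2 A, where 1 fragment on 1 kb already gives 0.170. A value of 0 in that library therefore says little about OZS1 and HT1, and sets a loose limit for EPF1. Pollen genes, which an anther of these stages should hold, were all present, with the 11 markers summing to an FPKM of 8126 to 13733 in ice1-2 and 13261 to 16775 in Col-0 libraries. Of the 5 seed markers, the storage protein gene CRU3 and the late embryogenesis gene GEA6 were listed at 0 in every library. EM1 was above 0 in every library, with an FPKM of 0.169 to 1.11. SESA1 was above 0 in ice1-2 B and C, and OLEO1 in ice1-2 C and Col-0 B.

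The 35 genes held 0.457% of the summed FPKM of all genes in ice1-2 and 0.370% in Col-0. Summed over all 35 genes, FPKM was 2631, 2897 and 3331 in ice1-2, against 2058, 1850 and 2993 in Col-0. The sums overlapped, because Col-0 C lay above ice1-2 A and B, and the group means were 2953 ± 353 in ice1-2 and 2300 ± 609 in Col-0 (SD, n = 3 each), a ratio of 1.28. A few genes carried most of this sum. The 5 with the highest mean FPKM, 1 PIP2, 2 PIP1 and 2 TIP genes, together held 60.3% of the family in ice1-2 and 53.5% in Col-0 on average, with single libraries between 49.1% and 62.1%. At the other end, 3 genes were listed above 0 in ice1-2 B alone, with an FPKM of at most 0.119.

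**Figure D1:**
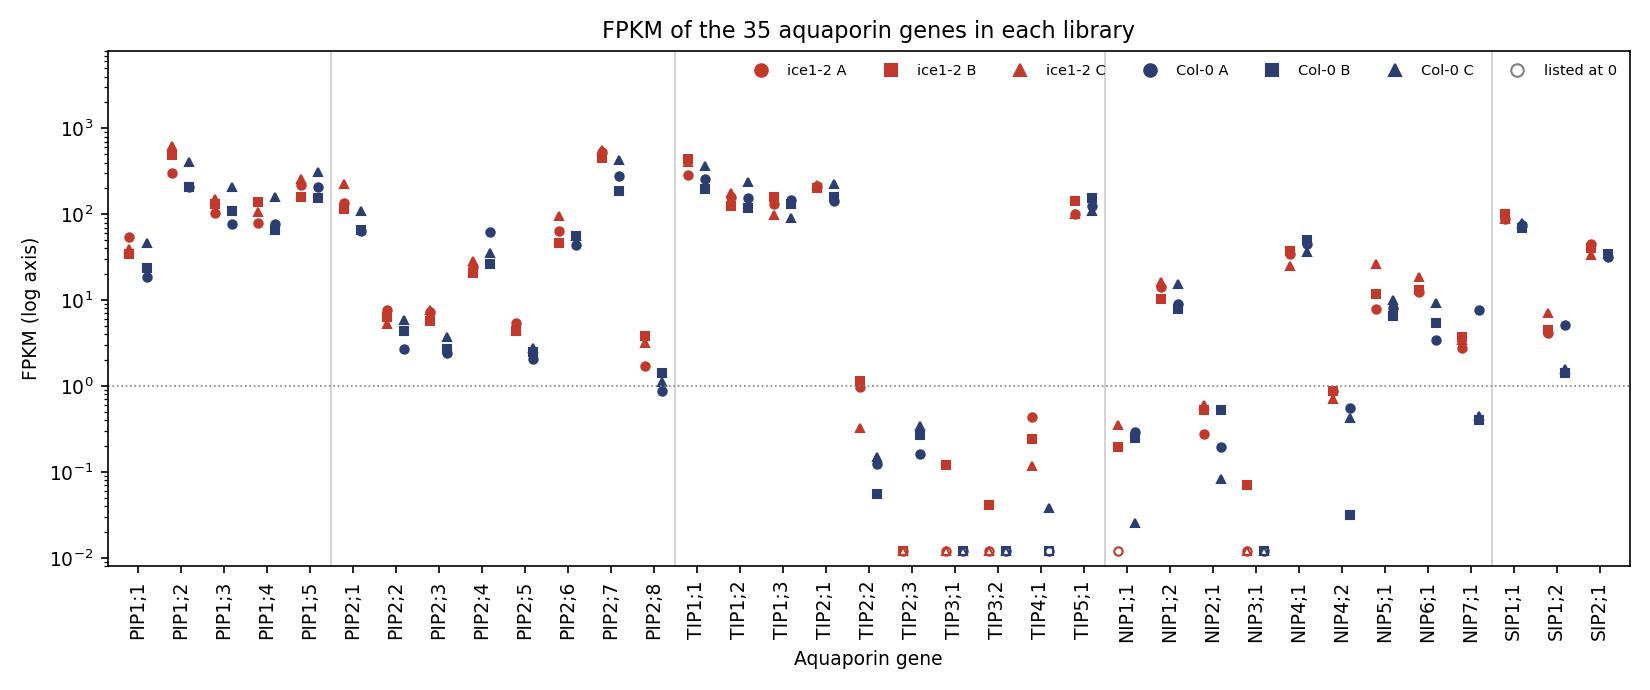
FPKM (log axis) of the 35 aquaporin genes in each ice1-2 (red) and Col-0 (blue) library, with circles, squares and triangles for libraries A, B and C, open symbols at the bottom for genes listed at 0, and a dotted line at an FPKM of 1. In 7 of the 26 genes tested, 5 of them PIP2 genes, every red symbol lies above every blue one.

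The question put to these genes was how their levels in ice1-2 anthers differed from those in Col-0 anthers. Of the 26 tested, 1 (3.85%) passed an adjusted p of 0.05 in limma, the PIP2 gene RD28 (AT2G37180, also named PIP2;3), and it rose in ice1-2. Among all genes tested, 1.89% were called, 1.62% as higher and 0.27% as lower in ice1-2. None of the 26 was called as lower, and 0 reached an unadjusted limma p under 0.05 in the lower direction, against 5.26% of all genes. At the same unadjusted level 7 were higher in ice1-2 (5 PIP2 genes, 1 NIP gene and 1 SIP gene), against 16.2% of all genes. The gene that was called was also the single one of the family with both an adjusted p under 0.05 and a log2 fold change over 1, which 1.78% of all genes had.

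The whole table leaned toward ice1-2, and the aquaporin genes are read against that lean. The fitted log2 fold change was above 0 in 21 of the 26 genes and in 65.2% of all genes. Its median was 0.43 over the 26 and 0.15 over all genes tested. With libraries rescaled by median ratios, the medians were 0.24 over the 26 and -0.017 over all genes, so the rescaling lowered both by about as much. By subfamily the median was 0.85 for the 8 PIP2 genes, 0.71 for the 5 tested NIP genes, 0.30 for the 3 SIP genes, 0.17 for the 5 PIP1 genes and 0.068 for the 5 tested TIP genes, and the rescaling turned the PIP1 and TIP medians to -0.016 and -0.12. In 7 of the 26 (26.9%) every ice1-2 library lay above every Col-0 library, as in 19.8% of all genes, and in 0 every ice1-2 library lay below, as in 7.39% of all genes.

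**Figure D2:**
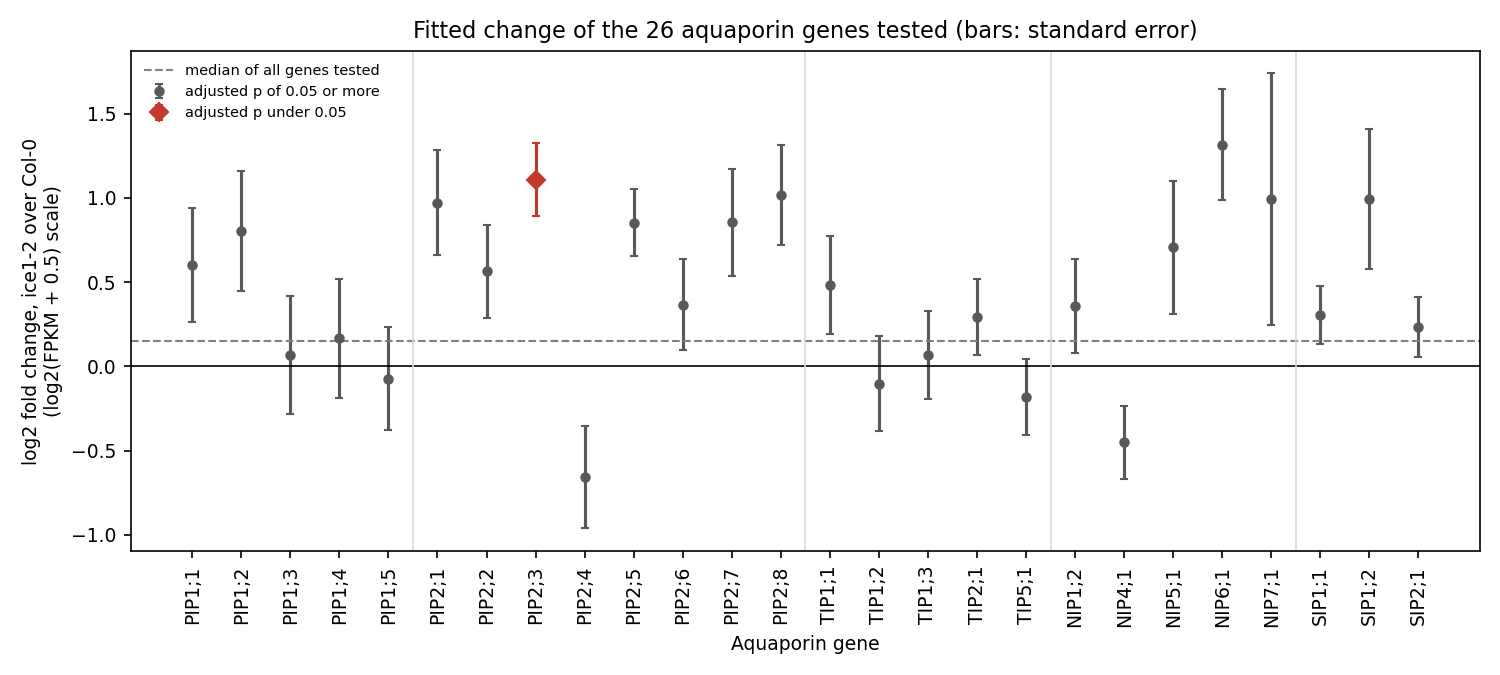
Fitted log2 fold change (ice1-2 over Col-0, on the log2(FPKM + 0.5) scale) of the 26 aquaporin genes tested, with bars for the standard error, a dashed line at the median of all genes tested (0.15) and a red diamond for the one gene called, whose adjusted p was 0.0477. Of the 8 PIP2 genes, 7 lie above 0 and 1 lies below.

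The PIP2 genes, which encode the strong water channels of the plasma membrane, gave the one call. Their summed FPKM was 772, 657 and 937 in ice1-2, against 459, 345 and 647 in Col-0. As listed, all ice1-2 libraries were above all Col-0 libraries, ice1-2 B by a small margin over Col-0 C. Of all single genes tested, 19.8% had this order. Divided by their median-ratio factors, 1.08 for ice1-2 B and 0.969 for Col-0 C, the sums of these libraries change order. The PIP2 sums thus overlap after rescaling. The means were 789 ± 141 in ice1-2 and 484 ± 153 in Col-0 (SD, n = 3 each), a ratio of 1.63.

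RD28, named for its response to desiccation, had an FPKM of 7.35, 5.66 and 7.78 in ice1-2, against 2.45, 2.72 and 3.70 in Col-0. The groups did not overlap, and the lowest ice1-2 library was well above the highest Col-0 library. The log2 fold change was 1.11 (standard error 0.22, limma adjusted p = 0.0477). The adjusted p lay just under the threshold and passed it in none of the fits that left out 1 library, where it was between 0.0675 and 0.160 while the log2 fold change was between 1.00 and 1.26.

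The value of RD28 has to be read with that of PIP2;2 (AT2G37170), a plasma membrane water channel gene beside it on the opposite strand of chromosome 2. In RefSeq's TAIR10.1, PIP2;2 is at chr2:15613368-15615022 on the minus strand and RD28 at chr2:15617635-15619155 on the plus strand, 2612 bases apart. Their coding sequences are 94.8% identical, and 143 windows of 100 bases occur without a mismatch in transcripts of both genes, 11.5% of the windows of the first and 12.8% of those of RD28. Fragments from such windows cannot be assigned to one of the pair, and the sources used here do not say how the deposited values treated them. Elsewhere the genes can be told apart, as the first 100 coding bases show, in which the 10 bases that differ are in capitals.
PIP2;2: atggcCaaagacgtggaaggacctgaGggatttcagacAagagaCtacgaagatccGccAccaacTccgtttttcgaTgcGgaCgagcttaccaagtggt
RD28: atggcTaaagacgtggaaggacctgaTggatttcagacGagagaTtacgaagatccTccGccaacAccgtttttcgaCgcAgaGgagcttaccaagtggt
The neighbour had an FPKM of 7.63, 6.34 and 5.33 in ice1-2, against 2.71, 4.33 and 5.94 in Col-0. These groups overlapped, since Col-0 C was above ice1-2 C, and the gene was not called (log2 fold change 0.57, standard error 0.28, limma adjusted p = 0.277). The summed FPKM of the pair was 15.0, 12.0 and 13.1 in ice1-2, against 5.16, 7.05 and 9.64 in Col-0, with no overlap.

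PIP2;5 (AT3G54820), known to respond to drought in leaves, was at a low level in both groups. Its FPKM was 5.43, 4.41 and 4.54 in ice1-2, against 2.04, 2.52 and 2.76 in Col-0. The groups were apart and tight, yet the gene missed the threshold (log2 fold change 0.85, standard error 0.20, limma adjusted p = 0.0647). PIP2;8 (AT2G16850), another plasma membrane channel gene, had an FPKM of 1.71, 3.81 and 3.16 in ice1-2, against 0.875, 1.41 and 1.11 in Col-0. It was the lowest PIP2 gene, and the gap between the groups was small beside the spread of the ice1-2 libraries (log2 fold change 1.02, standard error 0.30, limma adjusted p = 0.105).

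PIP2;7 (AT4G35100), a plasma membrane water channel gene known from salt stress, had the highest mean FPKM of the whole family. Its FPKM was 524, 454 and 566 in ice1-2, against 282, 186 and 433 in Col-0. The groups were apart, but Col-0 C reached close to ice1-2 B (log2 fold change 0.86, standard error 0.32, limma adjusted p = 0.170). PIP2;1 (AT3G53420), a water channel that in guard cells is phosphorylated by the kinase OST1, had an FPKM of 137, 115 and 225 in ice1-2, against 64.0, 66.4 and 110 in Col-0. Here too Col-0 C came close to ice1-2 B, and the gene was not called (log2 fold change 0.97, standard error 0.31, limma adjusted p = 0.126).

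PIP2;4 (AT5G60660), known mainly from roots, had the one negative estimate of the subfamily. Its FPKM was 24.5, 20.5 and 28.9 in ice1-2, against 61.9, 26.4 and 35.5 in Col-0. Col-0 A stood above all other libraries, and ice1-2 C overlapped with Col-0 B (log2 fold change -0.66, standard error 0.30, limma adjusted p = 0.255). Without Col-0 A the estimate was -0.32. The remaining gene, PIP2;6, had an FPKM between 46.4 and 95.9 in ice1-2 and between 43.4 and 55.6 in Col-0 libraries and was not called (limma adjusted p = 0.465).

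**Figure D3:**
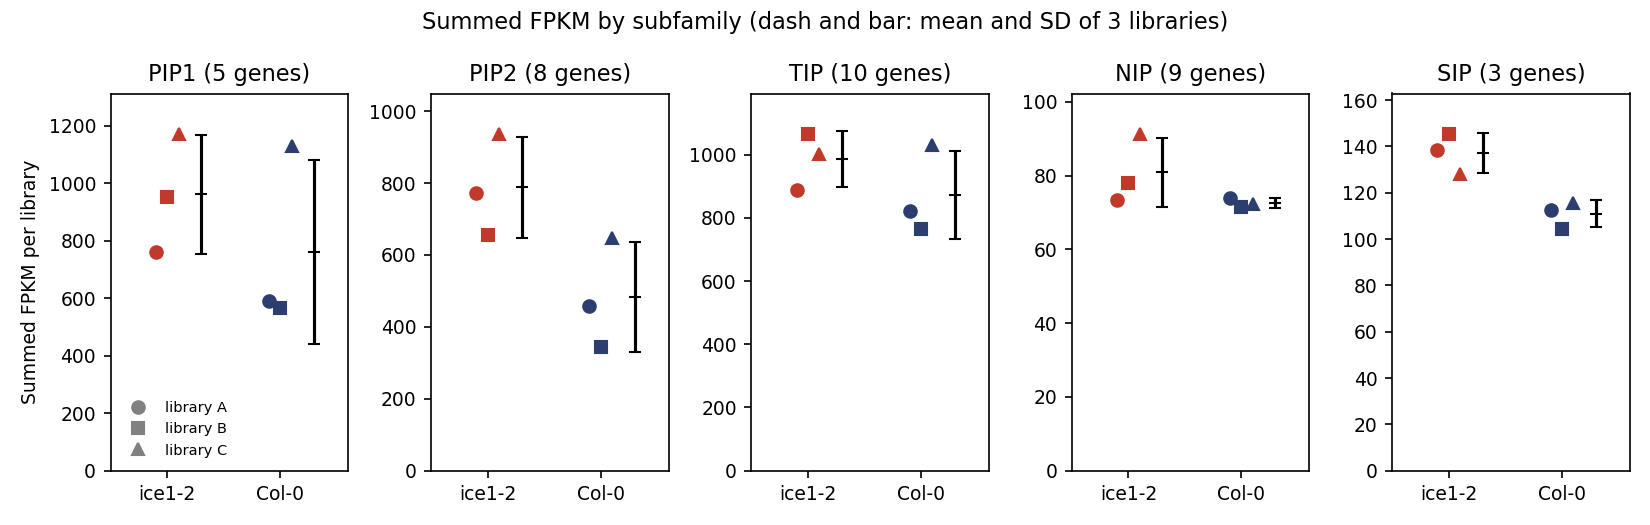
Summed FPKM of the PIP1, PIP2, TIP, NIP and SIP genes in each library (circle A, square B, triangle C), ice1-2 in red on the left and Col-0 in blue on the right, with the mean and SD of 3 libraries in black and axes that start at 0. Before rescaling by median ratios, the PIP2 and SIP sums do not overlap between the genotypes, while Col-0 C reaches into the ice1-2 range for PIP1 and TIP. After that rescaling, which is not shown, the PIP2 and SIP sums overlap as well.

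In the PIP1 genes, whose proteins reach the plasma membrane together with PIP2 partners, 0 of 5 passed the limma test and 0 had an unadjusted limma p under 0.05. Their summed FPKM was 759, 952 and 1171 in ice1-2, against 589, 564 and 1128 in Col-0. Col-0 C lay inside the range of ice1-2. PIP1;2 (AT2G45960), known for carbon dioxide as well as water transport in leaves, had the highest level and the largest estimate of the PIP1 genes. Its FPKM was 304, 493 and 619 in ice1-2, against 208, 209 and 401 in Col-0. Col-0 C was above ice1-2 A, and the gene was not called (log2 fold change 0.80, standard error 0.36, limma adjusted p = 0.236).

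PIP1;5 (AT4G23400), a further plasma membrane aquaporin, had an FPKM of 220, 157 and 257 in ice1-2, against 210, 156 and 314 in Col-0. The groups lay on top of each other (log2 fold change -0.07, standard error 0.30, limma adjusted p = 0.913), and the sign of this small value turned when ice1-2 B or Col-0 C was left out. The other 3, PIP1;1, PIP1;3 and PIP1;4, also overlapped, with log2 fold changes of 0.60, 0.07 and 0.17 in that order and limma adjusted p values of 0.335, 0.932 and 0.813.

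The TIP genes, whose proteins make the vacuole membrane permeable to water, fell into an abundant and a barely detected part. Summed over the 10, FPKM was 888, 1065 and 1003 in ice1-2, against 823, 765 and 1029 in Col-0, with overlap. Of the 5 tested, 0 were called by limma and 0 had an unadjusted limma p under 0.05. TIP1;1 (AT2G36830), the gamma-TIP of large vacuoles, had the highest level among them. Its FPKM was 284, 437 and 408 in ice1-2, against 255, 199 and 365 in Col-0. Col-0 C lay above ice1-2 A, so the groups overlapped (log2 fold change 0.48, standard error 0.29, limma adjusted p = 0.366).

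A pair of the abundant TIP genes is known from pollen. TIP5;1 (AT3G47440) had an FPKM of 101, 143 and 102 in ice1-2, against 126, 156 and 110 in Col-0. The groups overlapped (log2 fold change -0.18, standard error 0.22, limma adjusted p = 0.676). TIP1;3 (AT4G01470) was singled out with its values already seen, and had an FPKM of 131, 157 and 97.3 in ice1-2, against 147, 132 and 89.4 in Col-0, again with overlap. TIP1;2, the closest relative of the gamma-TIP gene, had an FPKM of 119 to 238 over the 6 libraries (limma adjusted p = 0.859). TIP2;1, an ammonia-permeable delta-TIP, had 141 to 227 over the 6 libraries (limma adjusted p = 0.484).

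The 5 TIP genes under the filter were at levels where a library holds few fragments. TIP2;3 (AT5G47450), a vacuolar ammonia and water channel gene, was listed at 0 in all ice1-2 libraries, and its FPKM in Col-0 was 0.163, 0.271 and 0.345. For its transcript of 1169 bases, those Col-0 values correspond to about 4.57, 8.56 and 8.91 fragments. In the ice1-2 libraries, 3 fragments would have given an FPKM of 0.437, 0.131 and 0.179, so the limit that a count of 0 sets in ice1-2 A lies above every Col-0 value.

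TIP2;2 (AT4G17340), its closest relative in the family, had the opposite order. Its FPKM was 0.971, 1.16 and 0.321 in ice1-2, about 7.72, 30.6 and 6.22 fragments, against 0.123, 0.055 and 0.150 in Col-0, about 3.99, 2.00 and 4.48 fragments. The groups did not overlap in either gene, and in the fit without the filter neither was called (limma adjusted p = 0.0904 for the gene at 0 in ice1-2 and 0.134 for its relative). TIP4;1 (AT2G25810), which passes urea in oocytes, had an FPKM of 0.436, 0.245 and 0.116 in ice1-2, against 0, 0 and 0.039 in Col-0, where the value in Col-0 C is that of about 1 fragment. Without the filter it was not called (limma adjusted p = 0.155). TIP3;1 and TIP3;2, the aquaporins of seed storage vacuoles, had about 2.76 and 0.950 fragments in ice1-2 B and were listed at 0 in the other libraries.

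Of the NIP genes, 0 of the 5 tested passed an adjusted p of 0.05 in limma, and 1 had an unadjusted limma p under 0.05. Their summed FPKM was 73.3, 78.0 and 91.3 in ice1-2, against 73.9, 71.4 and 72.4 in Col-0. The sums were close, while the estimates of single members lay on both sides of 0. NIP6;1 (AT1G80760), a boric acid channel that in shoots moves boron toward young tissue, had the largest log2 fold change of the 26 genes. Its FPKM was 12.5, 13.1 and 18.8 in ice1-2, against 3.40, 5.35 and 9.20 in Col-0. The groups were apart and every ice1-2 library was higher, but the gene missed the threshold (log2 fold change 1.32, standard error 0.33, limma adjusted p = 0.0760). NIP5;1, the boric acid uptake channel of roots, had an FPKM between 7.80 and 26.5 in ice1-2 and between 6.50 and 10.1 in Col-0 libraries, with overlap (limma adjusted p = 0.333).

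NIP4;1 (AT5G37810) and NIP4;2 (AT5G37820) are adjoining genes known from pollen and the pollen tube. The first had the highest level of the NIP genes, with an FPKM of 34.8, 37.5 and 24.7 in ice1-2, against 44.7, 50.5 and 36.8 in Col-0. Col-0 C lay just under ice1-2 B, and the gene was not called (log2 fold change -0.45, standard error 0.22, limma adjusted p = 0.273). The second was under the filter, with an FPKM of 0.876, 0.886 and 0.700 in ice1-2, against 0.557, 0.032 and 0.426 in Col-0. Its groups were apart in the other direction, and without the filter it was not called (limma adjusted p = 0.247). The coding sequences of the pair are 88.0% identical and share no window of 100 bases.

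NIP1;2 had an FPKM between 7.83 and 16.2 over all libraries and overlapped between the genotypes, and NIP1;1, NIP2;1 and NIP3;1 stayed at or under 0.607 in every library. Of the windows of the lactic acid channel gene among these, AT2G34390, 56.2% also occur in other annotated genes, so its low values are uncertain.

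One library decided the values of a further pair of genes. NIP7;1 (AT3G06100), a boric acid channel known from the anther and its tapetum, was likewise singled out with its values seen. Its FPKM was 2.76, 3.70 and 3.46 in ice1-2, against 7.62, 0.400 and 0.444 in Col-0. Col-0 A was the highest of all libraries and the other Col-0 libraries the lowest (log2 fold change 0.99, standard error 0.75, limma adjusted p = 0.474). Without Col-0 A the log2 fold change was 2.04 and the limma adjusted p was 0.0103. Leaving out Col-0 A also raised the limma calls over all genes from 357 to 598. Without Col-0 B the log2 fold change of NIP7;1 was 0.45 (limma adjusted p = 0.831). Without Col-0 C it was 0.49 (limma adjusted p = 0.772).

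SIP1;2 (AT5G18290), a water channel of the endoplasmic reticulum, also had its highest Col-0 value in Col-0 A. Its FPKM was 4.20, 4.44 and 7.15 in ice1-2, against 5.12, 1.41 and 1.59 in Col-0. The log2 fold change was 0.99 (standard error 0.41, limma adjusted p = 0.213) with all libraries and 1.49 (limma adjusted p = 0.0323) without Col-0 A. It was 0.71 (limma adjusted p = 0.495) without Col-0 B and 0.78 (limma adjusted p = 0.397) without Col-0 C. Genes on the other strand overlap it over up to 13.3% of its length, and the sources used here do not say whether strand was used in counting.

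Col-0 A also stood apart in the summed tapetum markers. The 13 markers summed to an FPKM of 2886, 2776 and 3788 in ice1-2, against 7445, 2140 and 1808 in Col-0. Of them 10 were tested, with 0 called by limma and 0 at an unadjusted limma p under 0.05. The regulator gene DYT1 was listed at 0 in all ice1-2 libraries, against 0.091, 0.199 and 0.067 in Col-0. These are levels of few fragments, since 1 fragment on 1 kb gives 0.170 in ice1-2 A and 0.037 to 0.045 in Col-0 libraries. Also listed at 0 were the regulator gene MYB80 in ice1-2 A and C and in Col-0 B and C, the regulator gene MS1 in ice1-2 A, and the enzyme genes CYP703A2 and LAP5 in Col-0 C. Col-0 A thus held the highest tapetum sum and Col-0 B and C the lowest, an order that the boric acid channel gene of the tapetum also had. Most of the Col-0 A sum came from GRP17, EXL4 and EXL6, with an FPKM of 3806, 2237 and 726. The same order held in AMS, A7, AT5G07230, CYP703A2, ACOS5, EXL4 and EXL6. It did not hold in GRP17, LAP5, LAP6, MS1, DYT1 and MYB80, with LAP6 at 20.0 in ice1-2 B against 19.8 in Col-0 A. The part of the tapetum in these values was not tested. In such bulk samples, fewer cells of a type and less RNA per cell cannot be told apart.

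**Figure D4:**
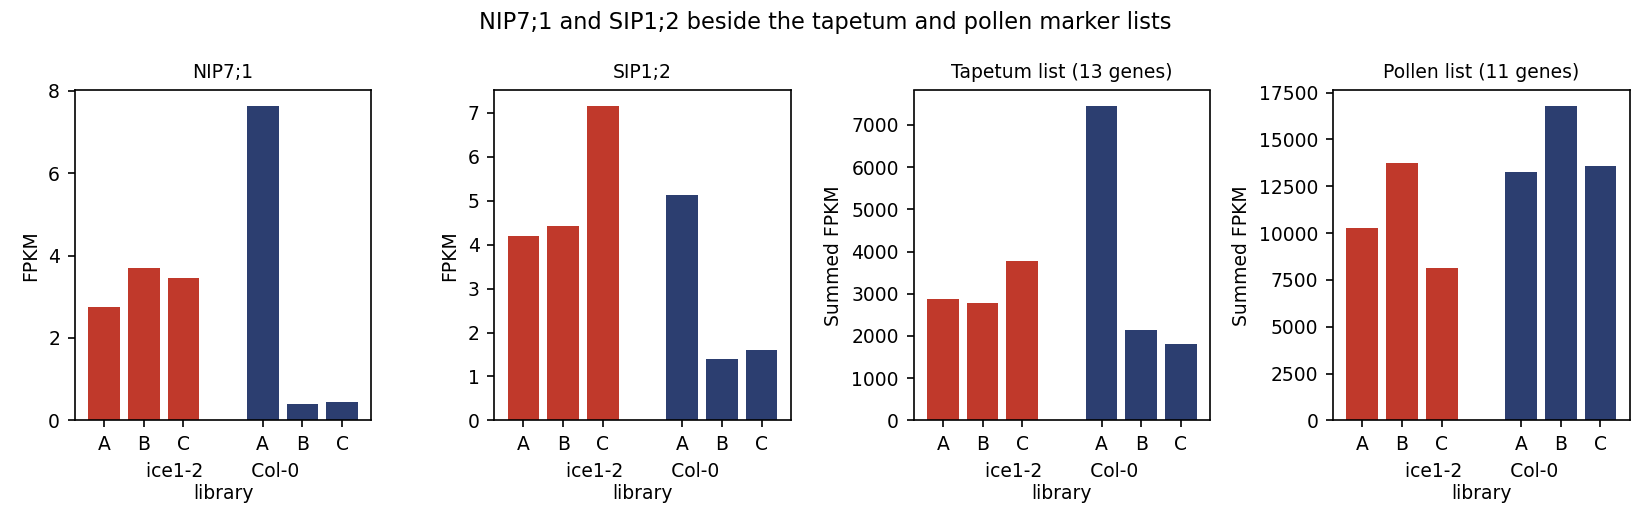
FPKM of NIP7;1 and SIP1;2 and summed FPKM of the 13 tapetum and 11 pollen markers in each library, ice1-2 in red on the left and Col-0 in blue on the right, with bars from 0. Col-0 A is the highest library in the first panel (7.62) and in the tapetum panel (7445), and Col-0 B and C are the lowest in both.

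The other SIP genes encode proteins of the endoplasmic reticulum as well. SIP1;1 (AT3G04090), a water channel, had an FPKM of 88.9, 100.4 and 87.5 in ice1-2, against 75.4, 68.9 and 79.5 in Col-0. The groups were apart with little spread, but the difference was small and not called (log2 fold change 0.30, standard error 0.17, limma adjusted p = 0.339). SIP2;1 had an FPKM between 33.6 and 45.3 in ice1-2 and between 32.1 and 34.6 in Col-0 libraries (limma adjusted p = 0.479). The SIP sum was 138, 145 and 128 in ice1-2, against 113, 104 and 116 in Col-0, with no overlap before rescaling. The median-ratio factors were 1.21 for ice1-2 C and 1.01, 0.869 and 0.969 for Col-0. Divided by them, the sum of ice1-2 C falls below all Col-0 sums.

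Markers of other tissues differed between the genotypes as well. The 13 green tissue markers, genes of photosynthesis, summed to an FPKM of 3175 to 5245 in ice1-2 and 1686 to 1986 in Col-0 libraries, with none at 0. Limma called 4 as higher, against 1.62% of all genes tested. At an unadjusted limma p under 0.05, 12 were higher, against 16.2% of all genes tested. Like the PIP2 sum before rescaling, the green tissue sum was higher in every ice1-2 library. Of the 11 pollen markers, none at 0, limma called 0, and 0 had a log2 fold change above 0, against 65.2% of all genes tested. At an unadjusted limma p under 0.05, 2 were lower, against 5.26% of all genes tested. In every ice1-2 library 5 lay below Col-0, against 7.39% of all genes tested. Of the 4 aquaporin genes known from pollen, AT5G37810 and AT3G47440 had log2 fold changes of -0.45 and -0.18 and AT4G01470 one of 0.07, with none called, while AT5G37820, under the filter, was higher in every ice1-2 library. The 8 guard cell markers summed to 22.7, 28.5 and 34.8 in ice1-2, against 60.5, 46.0 and 40.8 in Col-0. Of the 4 tested 1 was called as lower, the myrosinase gene TGG1 (limma adjusted p = 0.0311), against 0.27% of all genes tested. The guard cell sum rested on TGG1. Without it, a choice made with the values seen, the other 7 summed to 14.4, 16.2 and 18.4 in ice1-2, against 21.8, 6.89 and 7.21 in Col-0, with overlap. The potassium channel gene KAT1 had a log2 fold change of 1.31 (limma adjusted p = 0.246), and MYB60 and GORK had -0.042 and -0.083. The 7 vascular markers overlapped, with a summed FPKM of 49.6 to 64.5 in ice1-2 and 19.5 to 66.6 in Col-0 libraries. The 5 pistil and ovule markers summed to 5.41 to 10.1 in ice1-2 and 1.57 to 4.57 in Col-0 libraries. Of the 2 tested 1 was called as higher, the carpel gene CRC (limma adjusted p = 0.0326), against 1.62% of all genes tested. Without CRC, again chosen with the values seen, the other 4 summed to 2.38, 2.37 and 7.58 in ice1-2, against 4.07, 3.26 and 1.24 in Col-0, with overlap. The part of these tissues in the aquaporin values was not tested.

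Genes that act on aquaporins were not called in this comparison. The list of 13 holds kinases, ubiquitin ligases and membrane traffic proteins known to act on PIPs. All 13 were tested, limma called 0, 0 had an unadjusted limma p under 0.05, and their median log2 fold change was 0.21. Of the genes with the smallest p, the ubiquitin ligase gene RMA2 had a log2 fold change of 0.55 (limma adjusted p = 0.342), the traffic gene VAMP721 one of 0.45 (limma adjusted p = 0.303) and the kinase gene QSK1 one of 0.43 (limma adjusted p = 0.305). On the negative side, TSPO, whose protein takes PIP2 channels to degradation, had a log2 fold change of -0.37 (limma adjusted p = 0.339), the ligase gene RMA3 one of -0.26 (limma adjusted p = 0.383) and the kinase gene CPK7 one of -0.018 (limma adjusted p = 0.973).

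The BOR exporters work with the boric acid channels of the NIP group by carrying borate out of cells. Of the 7, 5 were tested and limma called 0, while 2 were lower at an unadjusted limma p under 0.05, against 5.26% of all genes tested. The same 2 were below Col-0 in every ice1-2 library, against 7.39% of all genes tested. BOR7 (AT4G32510) had an FPKM of 96.3, 109 and 87.7 in ice1-2, against 154, 237 and 195 in Col-0. The groups were far apart, and the gene came close to the threshold (log2 fold change -0.98, standard error 0.22, limma adjusted p = 0.0581). It passed only without Col-0 A (-1.14, limma adjusted p = 0.0420). With any other library left out, the limma adjusted p was between 0.0860 and 0.199. BOR6 (AT5G25430) had an FPKM of 20.9, 16.6 and 11.3 in ice1-2, against 21.0, 30.6 and 29.5 in Col-0. Its groups touched at ice1-2 A and Col-0 A without overlapping (log2 fold change -0.74, standard error 0.26, limma adjusted p = 0.153). BOR3, BOR1 and BOR4 had log2 fold changes of 0.31, 0.23 and 0.18 in that order, with limma adjusted p values of 0.377, 0.624 and 0.831.

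Basic helix-loop-helix proteins bind the E-box, and the CBF factors that ICE1 is known to induce in the cold bind a CCGAC core, so the 250 bases before each annotated gene start were searched for both motifs on both strands. The E-box (CANNTG, its own reverse complement) was in 19 of the 35 stretches (54.3%), against 55.3% of the 27443 stretches of the annotation, and CCGAC was in 4 (11.4%), against 12.0%. Among the subfamilies the E-box was in 4 of 5 PIP1, 2 of 8 PIP2, 6 of 10 TIP, 6 of 9 NIP and 1 of 3 SIP stretches. The stretches of the 4 genes with the smallest adjusted p are shown 5′ to 3′ up to the gene start, from RefSeq's TAIR10.1, with each E-box in capitals. In the order shown they are chr2:15617385-15617634 on the plus strand, chr3:20301509-20301758 on the plus strand, chr1:30352209-30352458 on the minus strand and chr2:7301084-7301333 on the plus strand.
RD28: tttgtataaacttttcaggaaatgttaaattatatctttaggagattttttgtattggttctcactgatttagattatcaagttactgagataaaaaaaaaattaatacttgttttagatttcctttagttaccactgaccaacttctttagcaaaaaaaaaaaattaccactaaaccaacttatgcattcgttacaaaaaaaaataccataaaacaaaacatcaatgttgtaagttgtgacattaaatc
PIP2;5: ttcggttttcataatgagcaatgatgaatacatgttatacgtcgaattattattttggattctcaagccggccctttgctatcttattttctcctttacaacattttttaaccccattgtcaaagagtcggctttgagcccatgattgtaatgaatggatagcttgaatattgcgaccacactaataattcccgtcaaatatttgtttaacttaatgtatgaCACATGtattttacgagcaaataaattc
NIP6;1: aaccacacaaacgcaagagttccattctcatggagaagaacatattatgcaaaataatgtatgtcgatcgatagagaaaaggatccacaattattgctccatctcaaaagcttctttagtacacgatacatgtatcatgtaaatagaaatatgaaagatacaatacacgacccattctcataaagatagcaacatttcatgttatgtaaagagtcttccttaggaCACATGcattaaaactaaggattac
PIP2;8: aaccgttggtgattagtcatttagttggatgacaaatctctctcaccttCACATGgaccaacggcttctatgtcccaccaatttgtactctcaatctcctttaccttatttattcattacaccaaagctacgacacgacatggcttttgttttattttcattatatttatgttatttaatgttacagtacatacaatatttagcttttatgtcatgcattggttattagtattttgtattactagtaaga
RD28, the one gene called, has no E-box in these bases, while the other stretches hold 1 each, with the letters CACATG in all 3. The same letters also occur in stretches of TIP, NIP and SIP genes of the family, so they are not particular to the genes shown. The stretch of AT3G54820 also holds CCGAC on the opposite strand, which reads gtcgg here and is not in capitals. A match describes the letters and does not show that a factor binds there. Bases farther upstream were not searched, so a stretch without an E-box does not show that the gene has none.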

How the data were processed

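Anther RNA of 3 ice1-2 and 3 Col-0 libraries was sequenced in reads of 100 bp, which the labels call both single-end and paired-end. The deposited FPKM values were calculated by the authors, who used Trim Galore for trimming, TopHat2 for mapping to TAIR10, StringTie with Cufflinks-CuffMerge for assembly and HTSEQ for counting. Strand use is not stated in those sources.

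FPKM is no count, so a log-scale model was used. The filter was an FPKM of 1 or more in 3 or more libraries. The model of log2(FPKM + 0.5) was a limma fit (version 3.58.1, R 4.3.3) with genotype alone in the design and a mean-dependent variance trend, two-sided, and p values were adjusted by Benjamini-Hochberg over all 18858 genes. Fold changes are on this scale and understate those of low genes. Tables, sequence comparison and figures were made with matplotlib 3.10.9, pandas 2.3.3 and numpy 2.4.6 in Python 3.11.15.

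Depth came from steps between low FPKM values, of which 26.5% to 50.4% lay within 0.05 of a whole step, so it is rough, and fragment numbers cover counting error only. Gene positions and sequences came from RefSeq's TAIR10.1, matched by identifier for all 35 genes. Library letters were checked as pairs: deviations of same-lettered libraries correlated at -0.21, 0.050 and 0.12, so letters were not treated as pairs.

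Values in every library are given for genes with an adjusted or unadjusted p under 0.05, for the highest gene and the most changed gene in each direction of each subfamily, and for genes under the filter whose groups were apart. Up to 3 regulators and 3 exporters per direction were named by p. The members, lists and this rule were chosen with earlier results of these data known. Alternatives were pseudocounts of 0.1 and 1, no filter, median-ratio scaling, a replicate block and each library left out.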

Additional observations from a re-analysis of the deposited data

How the results depend on the processing

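The count of 1 aquaporin gene with an adjusted p under 0.05, with or without the limit on the fold, was also 1 with a pseudocount of 1. It was 0 with a pseudocount of 0.1, without the filter, with median-ratio scaling and with a replicate block, and 0 to 2 when 1 library was left out. The 2 were NIP7;1 and SIP1;2 without Col-0 A, and PIP2;3 was not among them. The log2 fold change of PIP2;3 was between 0.94 and 1.26 and its adjusted p between 0.0464 and 0.160 over all 11 alternatives. The count of boron exporters was 0 to 1 with 1 library left out, the 1 being BOR7 without Col-0 A. With median-ratio scaling the median over the aquaporins was 0.24. The cause of these changes was not tested.

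Over all genes, 357 were called, against 28 without the filter, 198 with scaling and 35 with the replicate block. When 1 library was left out, the count was 17 for Col-0 B, 27 for Col-0 C, 28 for ice1-2 B, 33 for ice1-2 C, 303 for ice1-2 A and 598 for Col-0 A. Of the calls 85.7% were higher in ice1-2, and 76.8% with scaling. The library letters showed no pairing, and not every library correlated best with its own letter.

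Values near 0 changed sign. With 1 library left out, PIP1;5 lay between -0.31 and 0.19 (0.13 for ice1-2 B and 0.19 for Col-0 C left out). CPK7 lay between -0.21 and 0.14, above 0 when ice1-2 A (0.14), ice1-2 B (0.015) or Col-0 C (0.11) was left out. BOR4 lay between -0.24 and 0.60, under 0 when ice1-2 C (-0.017) or Col-0 B (-0.24) was left out, and was -0.0013 with scaling. The 9 genes under the filter could be fitted only without it. With 3 libraries per genotype and ice1-2 A at about 5.88 M fragments, the depth limits what can be said of genes under an FPKM of 1.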
